A study of Mus musculus with 29 samples.

Results

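The imprinted Gnas cluster on mouse chromosome 2 was followed in 29 reduced representation bisulfite sequencing (RRBS) libraries of 15 groups; RRBS cuts DNA with an enzyme whose site holds a CpG and so reads mostly CpG-dense sequence. The locus was taken as chr2:174105001-174165000 of the build mm9 and divided into 60 bins of 1 kb. Of these, 37 bins held a read in any library, against 786419 autosomal bins with a read in the series as a whole. The level of a bin or region is its methylated reads as a percent of all its reads, and a bin was kept in a library with 20 or more reads. Counts are summed over CpGs, so a read that covers several CpGs is counted at each of them. The locus and its regions were chosen on their levels in these libraries; they were selected on the differences between the same groups. Every value below is therefore a description without a test, and a difference is read against the standard deviation (SD) and the overlap of the libraries.

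Male mouse embryonic stem cells of 3 lines (J-34, J-35, J-37) entered their medium at passage 4. The 2i/L p10 and p20 groups were grown for 6 or 16 passages in 2i/L, the medium with a Mek1/2 inhibitor, a Gsk3 inhibitor and LIF. The 2i/L to S/L p23 and p30 groups spent 16 passages in 2i/L and then 3 or 10 passages in serum with LIF (S/L). The a2i/L and PKCi/L groups were grown in other inhibitor media with LIF, whose composition the labels do not give. PD alone and CHIR alone, the usual short names of a Mek1/2 and a Gsk3 inhibitor, were J-34 cultures of 6 passages. Neither their starting nor their final passage number is given. The Mek1/2 DKO library came from clonal induced pluripotent stem cells reprogrammed from Mek1fl/fl;Mek2-/- embryonic fibroblasts, from which the floxed Mek1 allele was deleted by Cre, and which were kept in S/L on feeder cells. S/L p10 and S/L p20 were the same lines grown for 6 or 16 passages in S/L. Keratinocytes were neonatal; those labelled 2i/L were male and the wild-type ones female, and the labels do not say how the 2i/L keratinocytes were derived. The 2i/L p10, 2i/L p20, p23, S/L p10 and S/L p20 groups had 3 libraries each, one per line. There were 2 libraries each of p30, of a2i/L p20, of PKCi/L p20 and of the 2i/L keratinocytes, and every other group had 1. The p30 library titled J-35 carries J-34 in its other labels and is given here as titled.

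Gnas encodes the stimulatory G-protein alpha subunit, which couples hormone receptors to adenylyl cyclase, and the locus makes several other transcripts from separate promoters. In mammals the promoter of Nesp, the most upstream one, drives a neuroendocrine secretory protein from the maternal allele and carries methylation on the paternal allele, which is acquired after fertilisation. The Nespas antisense transcript and the Gnasxl transcript start between Nesp and Gnas exon 1, are made from the paternal allele, and share a differentially methylated region whose maternal methylation is set in the oocyte. Exon 1A, just upstream of Gnas exon 1, is a second region methylated on the maternal allele, and the Gnas exon 1 promoter itself is unmethylated on both alleles. A region methylated on 1 allele in every cell reads as an intermediate level in bulk DNA, but the files hold no allele labels.

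A pair of promoters could be placed on the measured CpGs, and their sequences are shown because they anchor the locus: one lies in the region that differed most between keratinocytes, the other in the part that was unmethylated throughout. They are RefSeq promoter windows of Gnas in GRCm38.p6, printed over the 250 bases before the transcript start on the plus strand, with the CpGs read in at least 3 of the libraries in capitals.
Nesp promoter: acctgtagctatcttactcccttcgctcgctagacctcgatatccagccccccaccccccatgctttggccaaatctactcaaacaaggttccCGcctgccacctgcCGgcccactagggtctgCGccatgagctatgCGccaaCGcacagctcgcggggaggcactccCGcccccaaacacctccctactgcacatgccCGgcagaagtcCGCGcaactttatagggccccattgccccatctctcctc
Gnas exon 1 promoter: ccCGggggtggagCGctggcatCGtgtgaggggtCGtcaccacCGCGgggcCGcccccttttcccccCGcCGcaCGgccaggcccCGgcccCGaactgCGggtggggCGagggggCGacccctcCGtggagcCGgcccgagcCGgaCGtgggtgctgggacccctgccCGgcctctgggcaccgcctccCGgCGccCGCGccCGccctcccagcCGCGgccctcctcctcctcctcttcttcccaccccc
The Nesp window is chr2:174284070-174284319 and the exon 1 window chr2:174329756-174330005, both in GRCm38.p6. Placement used only the spacing of CpGs. Over the full window the Nesp promoter matched all 9 measured CpGs (mm9 174109664 to 174109784), where the second-best placement matched 5 of 9. The exon 1 promoter matched all 32 measured CpGs (mm9 174155259 to 174155554), where the second-best placement covered 3 CpGs and matched 3 of 3. The pair of overlapping exon 1A promoters could not be placed, with 4 of 5 CpGs at best. In RefSeq the antisense transcript Nespas is listed as Gnasas1 and overlaps Gnas.

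Reads over CpGs ran from 8359802 to 22433006 a library, and 347 to 479 CpGs of the locus were read. Of the 60 bins, 13 had 20 or more reads in all 29 libraries, 10 in some libraries, and 14 of the 37 bins with reads in none; a library kept 14 to 23 bins. The Nesp-side region (mm9 174109010 to 174110947, 52 CpGs) holds the placed Nesp promoter. The Nespas/Gnasxl-side region (mm9 174124005 to 174126480, 93 CpGs) lies between Nesp and exon 1, and no annotation of mm9 was used to place a transcript in it. It carried 487 to 1282 reads in a library. Libraries of p30, of both other inhibitor media at p20 and of keratinocytes covered 419 to 479 CpGs of the locus and the other 20 libraries 347 to 422, so levels over CpGs shared by all 29 libraries are given beside the comparisons of these groups.

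In serum-grown stem cells the Nespas/Gnasxl-side region stood at an intermediate level, and in 2i/L it was lower in every line. At p10 the region had 14.2% in J-34, 15.3% in J-35 and 14.7% in J-37 in 2i/L, against 43.8% in J-34, 44.0% in J-35 and 40.3% in J-37 in S/L. The groups did not overlap, with 14.7% ± 0.560 in 2i/L p10, against 42.7% ± 2.05 in S/L p10 (SD, n = 3 each), a difference of -28.0 points. The difference was -29.6 points within J-34, -28.6 within J-35 and -25.6 within J-37. Of 12 CpGs with 10 or more reads in each of these libraries, all 12 were lower in 2i/L p10, and 8 did not overlap. The share over all CpGs of the genome was not counted, so this count and those of CpGs below describe the region only. The CpG with the largest difference, at 174124504, had 17.8% in 2i/L p10, against 54.8% in S/L p10. The CpG with the smallest, at 174124606, had 28.3% in 2i/L p10, against 39.4% in S/L p10.

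At p20 the 3 lines lay further apart in 2i/L than at p10. The region had 20.5% in J-34, 11.9% in J-35 and 2.46% in J-37 in 2i/L p20, against 30.01% in J-34, 36.1% in J-35 and 32.4% in J-37 in S/L p20. The groups still did not overlap, with 11.6% ± 9.04 in 2i/L p20, against 32.8% ± 3.05 in S/L p20 (SD, n = 3 each), a difference of -21.2 points. Within lines the difference was -9.48 points in J-34, -24.1 in J-35 and -29.9 in J-37. The order of the lines was also that of the genome: the mean level of 54984 autosomal bins was 17.6% in J-34, 12.8% in J-35 and 9.07% in J-37 in 2i/L p20, against 34.9%, 34.3% and 35.2% for the same lines in S/L p20. All 30 CpGs of the region with enough reads were lower in 2i/L p20, with differences of -43.9 to -1.86 points, and 18 did not overlap.

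The region also differed between passages in S/L. It had 32.8% ± 3.05 in S/L p20, against 42.7% ± 2.05 in S/L p10 (SD, n = 3 each), without overlap, a difference of -9.88 points. Within lines the difference was -13.8 points in J-34, -7.89 in J-35 and -7.94 in J-37. The genome mean was 34.8% ± 0.438 in S/L p20, against 39.5% ± 0.257 in S/L p10 (SD, n = 3 each). In 2i/L the p20 and p10 libraries overlapped: the difference was +6.33 points in J-34, -3.39 in J-35 and -12.3 in J-37.

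**Figure D1:**
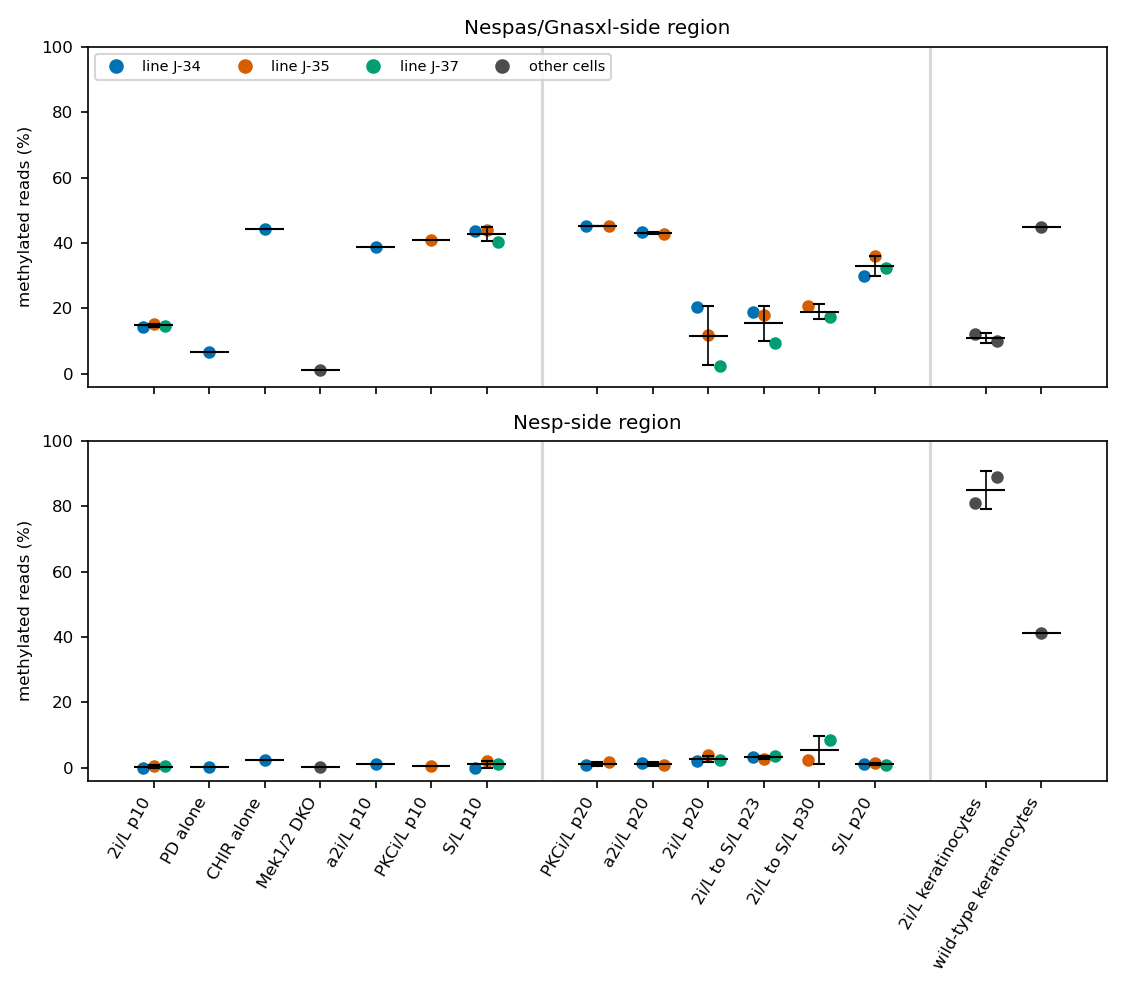
Methylated reads as a percent of all reads in the Nespas/Gnasxl-side region (top) and the Nesp-side region (bottom), 1 point per library, with the group mean as a line and the SD as a bar where a group has 2 or 3 libraries. In the stem cells the Nespas/Gnasxl-side region ranged from 0.974% in the Mek1/2 DKO library to 45.1% in PKCi/L p20 and the Nesp-side region stayed at or below 8.44%, while the 2i/L keratinocytes had 80.9% and 89.0% in the Nesp-side region.

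Across single bins of the locus, a bin was called lower or higher where the group means differed by 20 points or more and the libraries did not overlap. In 2i/L p10 against S/L p10, 4 of 15 bins with enough reads were lower, the 3 bins of the Nespas/Gnasxl-side region and the bin at 174.160 Mb, and 60% of autosomal bins were lower by the same rule. In 2i/L p20 against S/L p20, 5 of 19 bins were lower, where 61.6% of autosomal bins were. The share of called bins at the locus was below that of the genome at each passage. The locus holds many bins near 0 in S/L, in which no such difference is possible. For 2i/L p20 against 2i/L p10 no bin of 17 was lower (4.04% over the autosomes), and for S/L p20 against S/L p10 no bin of 15 was lower (4.02%).

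The bin just before the region (mm9 174123440 to 174123995, 25 CpGs) had the highest S/L level of the 6 bins from 174.121 to 174.126 Mb. It had 36.3% ± 2.65 in 2i/L p10, against 55.7% ± 7.52 in S/L p10 (SD, n = 3 each). At p20 it had 32.2% in J-34, 16.5% in J-35 and 5.44% in J-37 in 2i/L, against 51.1%, 46.8% and 46.9% for these lines in S/L. Its difference from S/L was thus -19.5 points at p10 and -30.2 points at p20, without overlap at either passage.

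After the cells were moved from 2i/L back to S/L, the region as a whole stayed nearer to its 2i/L level at p23. The genome mean was by then above its S/L p20 level, though not its S/L p10 level. At p23 the region had 19.0% in J-34, 17.9% in J-35 and 9.30% in J-37. The p23 libraries overlapped with those of 2i/L p20 (SD, n = 3 each: 15.4% ± 5.31 at p23, against 11.6% ± 9.04 in 2i/L p20), and did not overlap with S/L p20 (32.8% ± 3.05), a difference of -17.4 points from S/L p20. Of 30 CpGs, 27 were lower at p23 than in S/L p20, and 17 of these did not overlap. The bins of the region differed in this. The bin at 174.124 Mb had 12.5% ± 4.60 at p23, 11.1% ± 7.62 in 2i/L p20, against 32.0% ± 1.36 in S/L p20, while the bin at 174.126 Mb had 23.8% ± 12.7 at p23, 13.1% ± 14.95 in 2i/L p20, against 27.4% ± 8.72 in S/L p20 (SD, n = 3 each), with overlap of all 3 groups. The genome mean had reached 37.3% ± 0.372 at p23, against 34.8% ± 0.438 in S/L p20 (SD, n = 3 each).

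At p30 the libraries of the region had 20.6% in the library titled J-35 and 17.4% in J-37, which overlapped with the p23 values and stayed below every S/L p20 library, a difference of -13.8 points from S/L p20. Over the 54 CpGs read in all libraries the levels were 19.8% ± 2.87 at p30 (SD, n = 2), and S/L p20 had 34.2% ± 3.27 (SD, n = 3). Of 14 CpGs with enough reads 13 were lower at p30 than in S/L p20, but 4 of these did not overlap. The bin at 174.126 Mb was at 28.96% ± 7.19 (SD, n = 2), 1.52 points above S/L p20. J-37 had 2.46% before the return, then 9.30% at p23 and 17.4% at p30, so this line was higher at each step. The genome mean was 39.7% ± 0.425 at p30 (SD, n = 2).

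Set against what was lost in 2i/L, the region had regained 17.7% of the S/L p20 to 2i/L p20 difference at p23 and 34.7% at p30, as group means; over the lines that the p30 libraries carry in their titles it was 43.6% at p30. The genome mean had regained 112% at p23 and 122% at p30. These shares rest on S/L p20 as the reference, which was lower than S/L p10 in both the region and the genome mean. By line the region had regained 24.6% in J-35 and 22.8% in J-37 at p23; in J-34 p23 differed from 2i/L p20 by -1.53 points. At p30 it had regained 49.9% in J-37. In the library titled J-35 it had regained 35.9% set against J-35 and 0.554% set against J-34, the line in its other labels, so that the value of this library rests on which label holds.

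**Figure D2:**
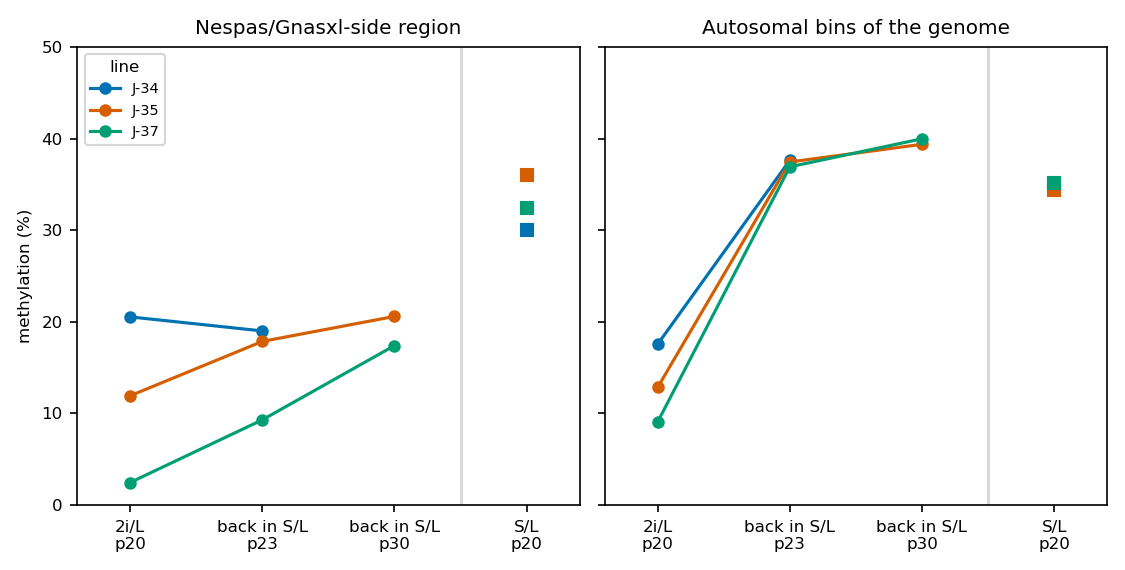
Level of the Nespas/Gnasxl-side region (left) and mean level of 54984 autosomal bins (right) in 2i/L p20, after 3 passages (p23) and 10 passages (p30) back in S/L, and in S/L p20 (squares), by line, in percent. The genome mean of each line was above its S/L p20 level by p23, whereas the region had 9.30% to 19.0% at p23 and 30.01% to 36.1% in S/L p20.

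The same contrast was counted over bins. Of the autosomal bins lower in 2i/L p20 than in S/L p20, 2.22% were still below S/L p20 at p23, as were 0.466% at p30; among bins that lay at 30 to 50% in S/L p20, these shares were 0.448% and 0.914%. At the locus 0 of 5 such bins were still called at p23 and 1 of 4 at p30, the bin before the region. At p23 the bins at 174.123, 174.124 and 174.125 Mb were -19.9, -19.5 and -19.4 points from S/L p20, just short of a call. The bin at 174.116 Mb was at -7.79 points with overlap, and the bin at 174.163 Mb at +10.2 points. With the call set at 10 points, 4 of 6 bins of the locus were still lower at p23, where 6.41% of autosomal bins were, and 4 of 5 at p30, where 2.31% were. The 5 locus bins lay on both sides of S/L p20 at p23. Their median was 28.4% at p23, 16.3% in 2i/L p20, against 39.9% in S/L p20. Over 63699 autosomal bins lower in 2i/L p20 these medians were 77.6%, 25.9% and 77.8%, and over 7140 of them at 30 to 50% in S/L p20 they were 51.8%, 11.3% and 41.5%.

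Of 20 bins of the locus, 2 were called higher at p23 than in 2i/L p20, both away from the placed promoters. The bin at 174.163 Mb, with 9 CpGs and downstream of exon 1, had 76.1%, 74.4% and 75.9% at p23 in J-34, J-35 and J-37, against 29.4%, 17.8% and 11.7% in 2i/L p20 and 58.1%, 71.2% and 66.7% in S/L p20. The p23 libraries lay above all libraries of both other groups, on 31 to 79 reads a library. The bin at 174.142 Mb, with 6 CpGs and between the Nespas/Gnasxl-side region and exon 1, had 95.5%, 93.1% and 90.9% at p23 against 62.8%, 38.5% and 36.7% in 2i/L p20 for the same lines, on 22 to 43 reads a library. The same rule called 68.3% of autosomal bins higher. The other bins were not called, with differences from -5.81 points at 174.112 Mb to +15.8 points at 174.116 Mb. Among them were -5.73 at 174.122 Mb, -4.79 at 174.121 Mb, +1.40 at 174.124 Mb, +10.3 at 174.123 Mb and +10.8 at 174.126 Mb. Against S/L p20, 1 of 19 bins was lower at p23 (174.121 Mb; 1.5% over the autosomes) and 2 of 17 were lower at p30 (174.121 and 174.123 Mb; 0.313%). No bin of 19 was higher at p23 (3.62%), and 2 of 17 were higher at p30 (174.160 and 174.163 Mb; 9.16%). From p23 to p30 no bin of 17 was called higher (4.37%).

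**Figure D3:**
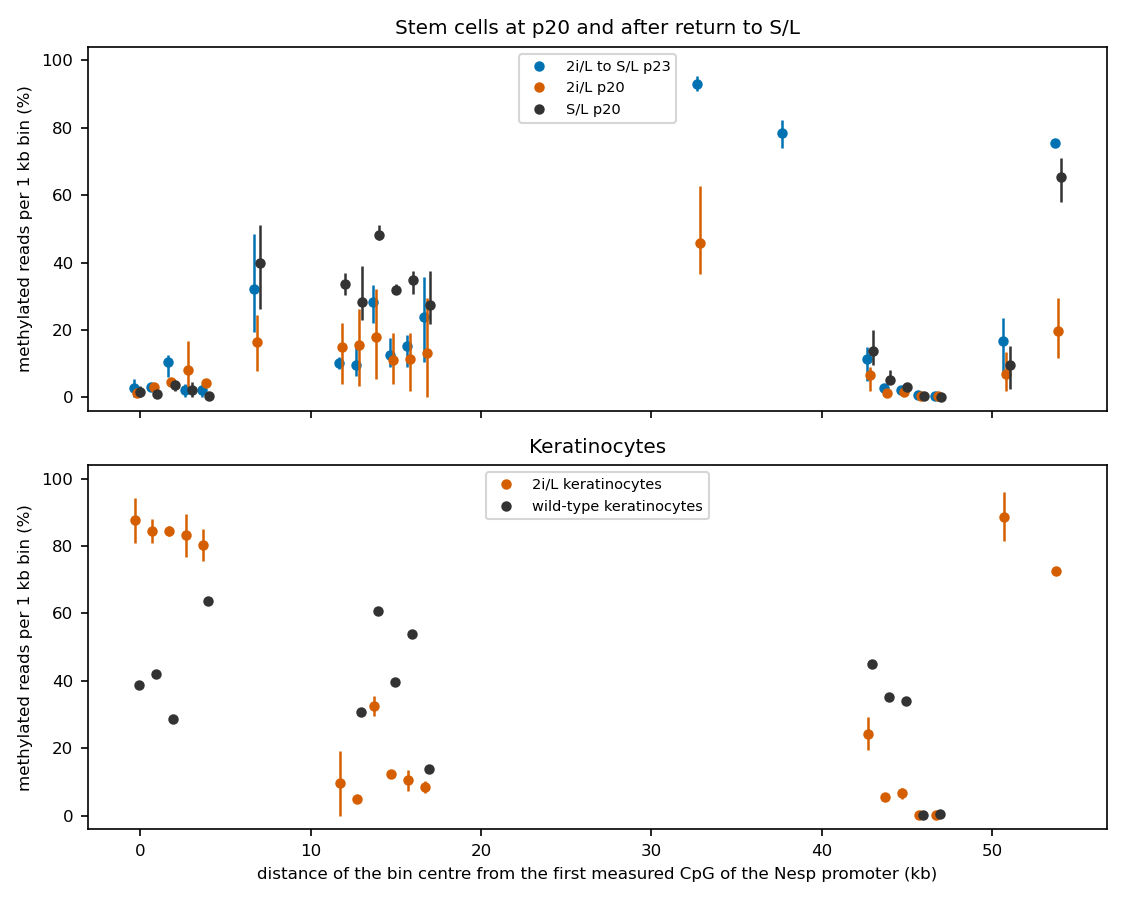
Methylation per 1 kb bin along the locus, in percent, against the distance of the bin centre from the first measured CpG of the Nesp promoter in kb, for stem cells (top) and keratinocytes (bottom); points are group means, lines run from the lowest to the highest library, and bins are shown where every library of the group had 20 or more reads. In the first 2 bins of the Nespas/Gnasxl-side region p23 lay nearer to 2i/L p20 than to S/L p20, in its last bin nearer to S/L p20, and at the far downstream bin above both; in keratinocytes the Nesp-side and Nespas/Gnasxl-side bins lay on opposite sides of the wild-type level.

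With a2i/L and PKCi/L the region was not lower than in S/L at p20. At p20 it had 43.2% in J-34 and 42.9% in J-35 in a2i/L, and 45.1% in each of these lines in PKCi/L, against 30.01% to 36.1% in S/L p20. The differences were +10.2 points for a2i/L (43.1% ± 0.224, SD, n = 2) and +12.3 points for PKCi/L (45.1% ± 0.00572, SD, n = 2) against S/L p20 (32.8% ± 3.05, SD, n = 3), without overlap. Over the 54 shared CpGs the levels were 43.9% with a2i/L and 45.8% with PKCi/L, against 34.2% in S/L p20. The genome mean was also higher, at 40.7% ± 0.405 with a2i/L and 40.8% ± 1.09 with PKCi/L at p20 (SD, n = 2 each), against 34.8% ± 0.438 in S/L p20 (SD, n = 3). At the locus 1 of 18 bins was higher in a2i/L p20 than in S/L p20, where 11.1% of autosomal bins were, and 1 of 18 in PKCi/L p20, where 10.2% were.

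Against 2i/L p20 the region was 31.4 points higher with a2i/L and 33.4 points higher with PKCi/L, with every library above every 2i/L library; over the shared CpGs 2i/L p20 had 11.9%. All 29 CpGs with enough reads were higher in a2i/L p20 and none of their libraries overlapped; in PKCi/L p20 all 27 were higher and 24 did not overlap. Of 18 bins of the locus, 7 were higher in a2i/L p20 (65.9% over the autosomes), and PKCi/L p20 had 6 (64.4%). Between these media the region was 2.03 points higher in PKCi/L p20 than in a2i/L p20; the libraries did not overlap, but 19 of 37 CpGs were higher and 18 lower, and the Wilson 95% intervals of the libraries overlapped. The bin before the region had 67.0% ± 6.91 in PKCi/L p20, against 54.9% ± 3.28 in a2i/L p20 (SD, n = 2 each). The 2 bins upstream of it differed the other way, with 26.0% in PKCi/L p20 against 40.9% in a2i/L p20, a difference of -14.9 points without overlap.

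Each of the next comparisons with S/L p10 had 1 treated library. PD alone in J-34 gave 6.76% in the region (Wilson 95% interval 5.39 to 8.46%), against 43.8% in J-34 in S/L p10 and below the 14.2% of J-34 in 2i/L p10. All 15 CpGs with enough reads were lower in PD alone than in S/L p10, with differences of -64.7 to -25.5 points. CHIR alone in J-34 gave 44.3% (40.8 to 47.9%), 0.513 points above the S/L p10 library of that line. The a2i/L p10 library of J-34 had 38.7% (35.8 to 41.8%), and the PKCi/L p10 library of J-35 had 40.9% (38.0 to 43.9%), against 40.3% to 44.0% in S/L p10. These intervals cover counting error at most, and not differences between libraries. They take the counts as independent, although a read over several CpGs is counted at each, and the reads carry no molecular identifiers. The genome mean was 17.0% in PD alone, against 16.4% in J-34 in 2i/L p10 and 39.5% in J-34 in S/L p10. It was 38.2% in CHIR alone and 33.1% in a2i/L p10, both of J-34. PKCi/L p10 had a genome mean of 38.4%, against 39.7% in J-35 in S/L p10. At the locus 6 of 15 bins were lower in PD alone (61.1% over the autosomes), against 0 of 15 in CHIR alone (2.48%), 0 of 15 in a2i/L p10 (13.1%) and 0 of 15 in PKCi/L p10 (3.5%).

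The Mek1/2 DKO library had the lowest level of the region in the 29 libraries. The region held 9 methylated of 924 reads, 0.974% (Wilson 95% interval 0.513 to 1.84%), against 42.7% ± 2.05 in S/L p10 (SD, n = 3). The bin before the region had 5.56% in the DKO library and 55.7% ± 7.52 in S/L p10 (SD, n = 3), and 7 of 15 bins of the locus were lower, where 63% of autosomal bins were. The genome mean of this library was 11.1%, against 39.5% ± 0.257 in S/L p10 (SD, n = 3). These cells are 1 clonal line that went through reprogramming, so genotype, line and derivation cannot be told apart.

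**Figure D4:**
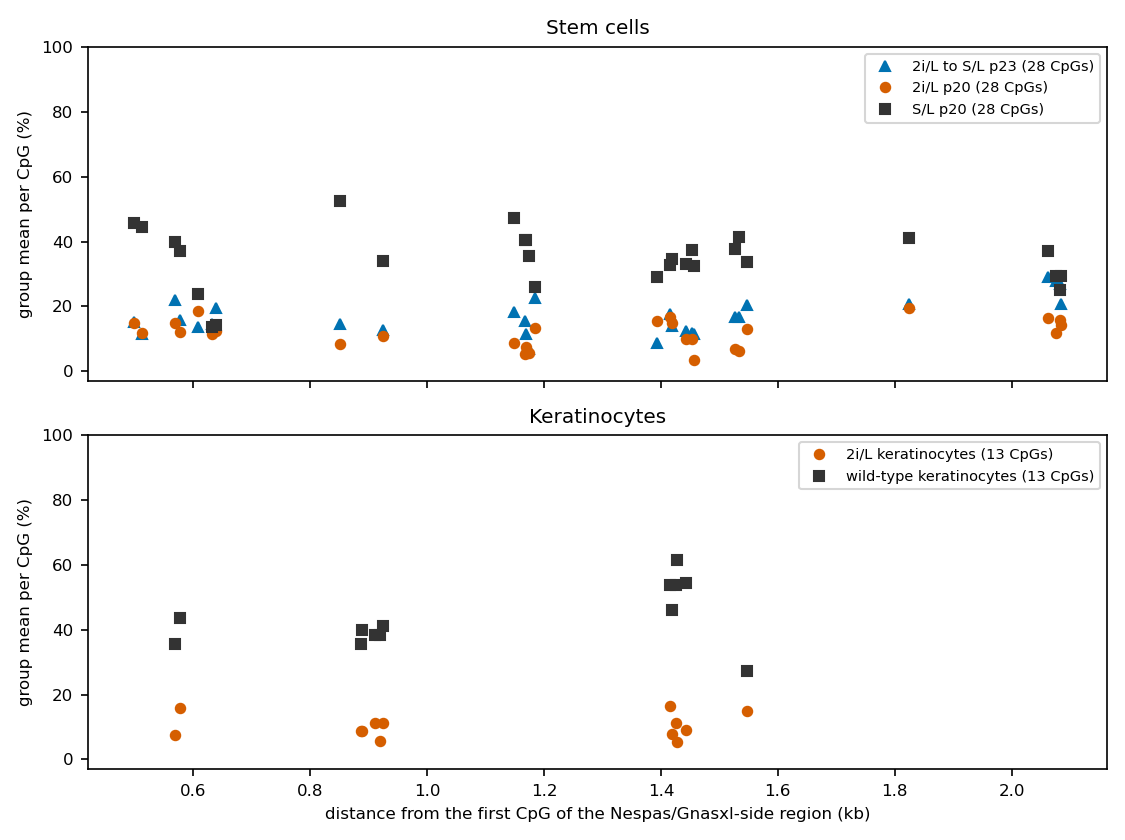
Group mean methylation of single CpGs in percent against their distance in kb from the first CpG of the Nespas/Gnasxl-side region, for CpGs with 10 or more reads in every library shown (28 in stem cells, 13 in keratinocytes). The medians over these CpGs were 15.8% at p23, 12.0% in 2i/L p20, against 35.1% in S/L p20; they were 9.03% in 2i/L keratinocytes and 41.2% in wild-type keratinocytes.

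The Nesp side of the locus was almost unmethylated in every stem cell library. Its level ran from 0 to 8.44% over 26 stem cell libraries with a median of 1.30%, on 245 to 624 reads a library. At p10 it was 0.343% in 2i/L against 1.07% in S/L, with overlap. It was 2.08% to 3.77% in 2i/L p20 against 0.823% to 1.51% in S/L p20, a difference of +1.54 points without overlap. At p23 it was 2.77% to 3.48%, which overlapped with 2i/L p20 and not with S/L p20. The highest stem cell library was J-37 at p30, with 8.44% (33 of 391 reads), while the other p30 library had 2.39%. In the placed Nesp promoter 11 of 60 reads, summed over 9 CpGs, were methylated in J-37 at p30, 18.3%. The other p30 library had 2 of 71, and the other stem cell libraries had at most 5.61%. Neighbouring CpGs can share a read, so these counts need not be separate molecules.

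In keratinocytes the sides of the locus differed in opposite directions. The Nesp-side region had 80.9% and 89.0% in the 2i/L keratinocytes, against 41.1% (Wilson 95% interval 34.1 to 48.5%) in the wild-type keratinocytes, a difference of +43.8 points. The placed Nesp promoter had 80.6% and 94.1% in the 2i/L keratinocytes, against 38.8% in the wild-type keratinocytes, on 34 to 62 reads. The Nespas/Gnasxl-side region had 12.1% and 9.88% in the 2i/L keratinocytes, against 45.0% (40.6 to 49.4%) in the wild-type keratinocytes, a difference of -34.003 points. Over the shared CpGs the 2i/L keratinocytes had 84.6% on the Nesp side and 10.8% on the Nespas/Gnasxl side, against 41.4% and 47.8% in the wild-type keratinocytes. All 13 CpGs with enough reads were lower in the 2i/L keratinocytes, with differences of -56.3 to -12.3 points. The wild-type library was thus at an intermediate level in each region taken as a whole, and the 2i/L libraries were high in the one and low in the other. The bin at 174.126 Mb of the Nespas/Gnasxl-side region was low in both. It had 14.0% in the wild-type library, on 43 reads, and 6.80% and 10.3% in the 2i/L keratinocytes.

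The 2 bins before the exon 1 bin, 82 CpGs from mm9 174153306 to 174154876, lie where exon 1A would be by its distance from exon 1 in RefSeq. They had 7.21% and 4.75% in the 2i/L keratinocytes, against 34.5% (28.6 to 41.0%) in the wild-type keratinocytes. All 26 stem cell libraries were at 0.243% to 8.77% there. Within that low range 2i/L was below S/L: 0.839% ± 0.533 in 2i/L p10, against 4.34% ± 0.704 in S/L p10, then 1.48% ± 0.428 in 2i/L p20, against 4.13% ± 1.09 in S/L p20 (SD, n = 3 each), without overlap at either passage. At p23 it had 2.44% ± 0.188 (SD, n = 3), still without overlap with S/L p20, and at p30 5.25% ± 0.284 (SD, n = 2), which overlapped with S/L p20. The Gnas exon 1 promoter was at or below 1.13% in all 29 libraries.

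Over the locus, 7 of 14 bins were lower in the 2i/L keratinocytes (1.83% over the autosomes) and 3 of 14 were higher (1.65%), while the genome mean hardly differed, at 42.7% ± 0.0640 (SD, n = 2) in the 2i/L keratinocytes and 43.0% in the wild-type library. The lower bins were those at 174.122 to 174.125 Mb and 174.152 to 174.154 Mb, and the higher ones those at 174.109 to 174.111 Mb. With 1 wild-type library, which was also of the other sex and the shallowest of the series, culture history, sex and animal cannot be told apart.

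Among 51847 autosomal bins outside the locus with 5 or more CpGs and 20 or more reads in all 29 libraries, the 5 closest to the Nespas/Gnasxl-side region differed from it by a root mean square of 7.99 to 9.20 points over the libraries. The region's own 3 bins differed by 2.68 to 8.69 points, but its level is pooled from them, so they give no yardstick of likeness. Most alike was chr2:157387158-157387634 (mm9, 18 CpGs), with 6.09% at p23, 8.55% in 2i/L p20, against 39.5% in S/L p20; it had 18.9% in 2i/L against 48.0% in wild-type keratinocytes. A second bin of that stretch, chr2:157386010-157386255, was the fourth. Next came chr6:58856608-58856898 (19 CpGs), with 6.31% at p23, 6.32% in 2i/L p20, against 47.7% in S/L p20. The other bins were chr11:22874076-22874252 (6 CpGs) and chr11:11926155-11926883 (73 CpGs), the chr11:11926155 bin on at least 339 reads a library, with 8.25% at p23, 9.67% in 2i/L p20, against 41.4% in S/L p20. These bins were picked for their likeness over the same libraries and were not assigned to genes.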

How the data were processed

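The 29 CpG lists were used as the authors deposited them. The submitters' processing notes name BSMAP 2.89 and the build mm9; read filters and bisulfite conversion are not stated there. For every CpG the deposited lists hold the methylated and total reads as a text field beside a score, the same share scaled and cut to a whole number; only the reads were used. Reads were summed per 1 kb bin and library (numpy 2.4.6, Python 3.11.15), and bins with 20 or more reads were kept. Groups were compared in 19 pairs by mean, SD, overlap of libraries and differences within line. A bin was called at 20 points without overlap, and the rule was applied to all autosomal bins as background. It was also tried on simulated reads without variation between libraries, which does not cover groups whose lines differ or groups of 1 library. Single CpGs named had 10 or more reads in every library compared. Wilson 95% intervals came from scipy 1.17.1. The locus, regions, groups and rules were chosen with earlier results of these data known. No mm9 genome or annotation was used. Nothing in the labels says that libraries of a group came from separate animals beyond the line names. Alternatives covered the CpG weighting and minimum, region edges, bin edges, read minimum, call size, lines and each left-out library.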

Additional observations from a re-analysis of the deposited data

Results flagged for a closer look

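In the Nespas/Gnasxl-side region the lines moved in opposite directions under the same contrast. Between 2i/L p20 and 2i/L p10 the difference was +6.33 points in J-34, -3.39 points in J-35 and -12.3 points in J-37. Between p23 and 2i/L p20 it was -1.53 points in J-34, +5.93 points in J-35 and +6.84 points in J-37. Each line has 1 library per group, and these differences between lines were not tested. The genome mean of 2i/L p20 ran in the same order of lines, with 17.6% in J-34, 12.8% in J-35 and 9.07% in J-37, and its part in the result was not tested.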

How the results depend on the processing

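No paired analysis was possible because the results come from no test, the locus having been selected on these values; the lines do pair libraries, and differences within line are given. Of 423 alternatives for the differences of the 2 regions, 389 stayed within the spread between libraries, 32 moved beyond it and 2, given below, changed the sign of a difference without overlap. Differences with overlapping libraries changed sign in 26 alternatives, 24 of them on the Nesp side. In the Nespas/Gnasxl-side region p23 minus 2i/L p20 was -0.844 and 2i/L p20 minus 2i/L p10 +1.48 without J-37 in 2i/L p20. With each CpG counted once, the Nespas/Gnasxl-side difference was -25.6 points for 2i/L p10 against S/L p10, +6.39 for a2i/L p20 and +15.4 for PKCi/L p20 against S/L p20, +8.997 for PKCi/L p20 against a2i/L p20, -32.7 for PD alone, -37.9 for Mek1/2 DKO and -28.5 for 2i/L against wild-type keratinocytes; on the Nesp side p23 against S/L p20 was +1.55. With 5 or more reads in all 29 libraries it was -23.3 for p23 and -17.5 for p30 against S/L p20, +1.51 for PKCi/L p20 against a2i/L p20, -0.335 for CHIR alone (the sign changed) and -44.1 for Mek1/2 DKO; on the Nesp side it was +4.11 for p23 against S/L p20 and +56.2 for keratinocytes. The first 2 bins alone gave -0.0742 for CHIR alone (the sign changed) and +1.77 for PKCi/L p20 against a2i/L p20, CpGs with 5 or more reads in that library gave +0.612 for that pair, and 4 bins gave +3.07 on the Nesp side for p23 against S/L p20. With the 3 bins before it added, an alternative chosen after seeing the data, the Nespas/Gnasxl-side difference was -24.5 for 2i/L p10 and +3.08 for PKCi/L p20 against a2i/L p20. The cause of these moves was not tested. For the counts of called bins that follow, the share over the autosomes was counted only for bins still lower with a call at 10 points, given above. The other counts describe the locus only and cannot be read against the genome. Bins lower in 2i/L were 2 at p10 and 3 at p20 with 50 reads, and 1 and 2 with a call at 30 points. Leaving out 1 library gave 2 to 7 bins at p20, with 2 without J-37 in 2i/L and 7 without J-34 in 2i/L. Bins higher at p23 than in 2i/L p20 were 0 with 50 reads and 1 with 5 or more reads per CpG. Between keratinocytes 1 bin was lower with a call at 30 points and 1 higher with 50 reads. Bins lost in 2i/L and still lower numbered 4 at p23 and 4 at p30 with a call at 10 points, and 0 at p30 with 30 points. Bins with few reads, 24 of 37 under 20 reads in some library, limit what can be said outside the 2 regions.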

Other observations

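The bin at 174.160 Mb, 6 CpGs downstream of the Gnas exon 1 promoter, followed neither of the regions described above. It had 34.4% and 37.9% at p30, against 15.4%, 2.56% and 10.8% in S/L p20, and 81.4% and 96.2% in the 2i/L keratinocytes, where the wild-type library had too few reads to be kept. In 2i/L p10 it had 1.54%, 8.70% and 2.00%, against 20% to 30.8% in S/L p10, on 26 to 69 reads a library. The bin at 174.116 Mb, 5 CpGs between the Nesp side and the Nespas/Gnasxl side, had 48.6%, 28.2% and 19.4% at p23, against 26.2%, 42.1% and 51.3% in S/L p20, so that the groups overlapped. In the bin at 174.147 Mb, 2 CpGs upstream of exon 1A, the Mek1/2 DKO library had 42.3% (11 of 26 reads), against 75.0% and 95.7% in the S/L p10 libraries with enough reads.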
